A study of Bos taurus with 9 samples.

Results

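The genes described here are 10 components of fibroblast growth factor (FGF) signalling, the ligands FGF2, FGF4 and FGF10, the receptors FGFR1, FGFR2, FGFR3 and FGFR4, the co-receptor KLB and the adaptors FRS2 and GRB2. They were picked by gene symbol, as ligands, receptors and their signal adaptors, and all 10 were found among the 21512 genes of the expression table. The table holds the transcriptomes of 9 single bovine blastocysts produced in vitro and collected at day 8 (D8), 5 wild-type (WT) and 4 TEAD4 knockout (KO). The study examined whether bovine and rabbit embryos need TEAD4, a DNA-binding partner of YAP in the Hippo pathway, to form and maintain trophectoderm. These transcriptomes were part of it, made to see which transcripts change when TEAD4 is lost. All embryos came from in vitro matured oocytes, were injected with Cas9 mRNA, were fertilised with semen of 1 bull and grew in synthetic oviduct fluid with calf serum. WT embryos had received Cas9 mRNA alone. KO embryos had also received a single guide RNA against TEAD4 and carried only alleles with frame-disrupting indels, which may differ from embryo to embryo. Each library stands for 1 whole embryo and keeps the heading of its column, WT_1 to WT_5 for WT and TE_1 to TE_4 for KO.

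FGFs are secreted factors that bind receptor tyrosine kinases at the cell surface together with heparan sulphate or, for the endocrine FGFs, a Klotho co-receptor. The activated receptor phosphorylates FRS2, which recruits GRB2 and SOS and so switches on the Ras-ERK cascade, whose output includes its own inhibitors. In the mammalian blastocyst, FGF4 made by the epiblast is known to direct neighbouring inner cells to the hypoblast, and FGFs also act on the trophectoderm.

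Values are in TPM, the abundance of a transcript corrected for its length and scaled to a fixed library total, so that levels of genes can be compared within a library. Every library summed to 1000000 TPM. Read numbers cannot be recovered from TPM. The deposited table gives no depth for single libraries, and values carry no counting interval. None of 10 housekeeping genes looked up fell to 0 in any library, and 20.9 TPM was their lowest value. Between 14776 and 16678 genes were above 0 per library, on average 16010.6 ± 741 in WT (SD, n = 5) and 15118.5 ± 249.6 in KO (SD, n = 4).

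Markers of a blastocyst were present in all libraries. The keratin gene KRT8 was between 2721 and 11972 TPM, and the trophectoderm factor CDX2 between 17.1 and 55.2 TPM. POU5F1, the most abundant of the 3 genes listed as epiblast markers, was between 773 and 2142 TPM. The study states that POU5F1 and CDX2 do not exclude each other in bovine blastocysts as in the mouse, so POU5F1 is not specific to epiblast. The hypoblast factor GATA6 was between 29.3 and 145.7 TPM. The epiblast factor NANOG was close to 0 in WT_1, at 0.127 TPM, and reached 262 TPM in WT_4, so that this epiblast marker varied widely within 1 genotype. In such whole-embryo samples, fewer cells of a type and less RNA per cell cannot be told apart.

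TEAD4 itself reached 18.0, 52.5, 54.3, 36.5 and 43.4 TPM across WT_1 to WT_5, and 42.8, 41.8, 12.5 and 22.2 TPM across TE_1 to TE_4. Only TE_3 lay below the lowest WT library, and TE_1 and TE_2 lay close to the WT mean of 40.9 ± 14.7 TPM (SD, n = 5). Transcript abundance does not show whether a message carries a frame-disrupting indel, so TEAD4 TPM is no check of the genotype.

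Of the 10 genes, 9 had a median above 0.1 TPM and were tested between genotypes with limma on log2(TPM + 1), together with all 14599 genes past that median. FGF10 was the gene not tested. A gene was called changed at a Benjamini-Hochberg adjusted p under 0.05 with an absolute log2 fold change above 1. No tested component was called (0 of 9, against 3 genes or 0.0205% of all genes tested by limma). At an unadjusted p under 0.05 there was 1 of 9, FRS2, against 5.90% of all genes. Every KO embryo lay below every WT embryo in 2 of 9, FGFR2 and FRS2, against 1.23% of all genes, and in 0 of 9 did every KO embryo lie above every WT embryo, against 0.801%. With so few components, 1 gene more or less moves these shares widely. The components and the gene lists below were chosen with earlier results of these data known, so their shares are descriptions only. The 3 called genes were H2AC18 and H2BC5, which encode histones, and 1 gene listed by its identifier ENSBTAG00000033523, named here after their values were seen. Log2 fold changes are KO minus WT on the log2(TPM + 1) scale throughout, which understates the change of genes with low values.

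**Figure D1:**
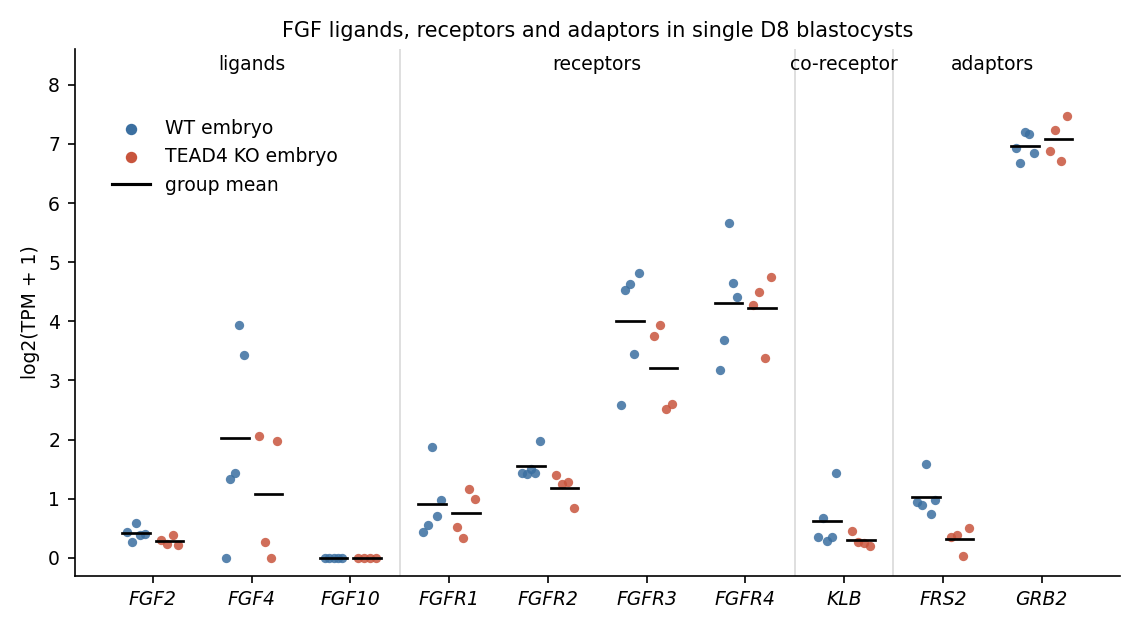
Level of each of the 10 genes in every embryo, as log2(TPM + 1) on the vertical axis, with WT embryos in blue, TEAD4 KO embryos in red and the group mean as a black line. GRB2 stood above all other components in every embryo, FGF10 was listed at 0 in all 9, and the WT and KO points were apart only in FGFR2 and FRS2.

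The components covered a wide range of levels. GRB2 was highest, with a mean of 130.3 ± 25.0 TPM (SD, n = 9), followed by FGFR4 at 21.0 ± 12.4 TPM and FGFR3 at 13.9 ± 8.69 TPM. FGF4 averaged 3.75 ± 5.02 TPM, an SD above its mean. FGFR2 averaged 1.68 ± 0.570 TPM, and the remaining transcripts had means below 1 TPM, FGFR1 at 0.893, FRS2 at 0.720, KLB at 0.444 and FGF2 at 0.286 TPM. Below GRB2, the ranges of neighbours in this order overlapped.

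Among the 3 ligands, FGF4, the epiblast-derived signal to the hypoblast, was the most abundant and the most variable. FGF4 measured 0, 1.53, 1.71, 14.4 and 9.84 TPM across WT_1 to WT_5, against 3.16, 0.204, 0 and 2.92 TPM across TE_1 to TE_4. The highest values were those of WT_4 and WT_5, 1 embryo of each genotype was listed at 0, and no KO embryo lay below the lowest WT embryo. FGF4 differed by −0.96 log2 units between KO and WT (SE 0.77, limma adjusted p = 0.943), which is within the spread of the embryos (two-sided exact permutation p = 0.381). This difference lay between −1.47 and −0.48 when single embryos were left out.

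FGF2, a ligand with broad receptor binding, was detected at a low level in every embryo. FGF2 reached 0.350, 0.198, 0.498, 0.313 and 0.327 TPM across WT_1 to WT_5, and 0.227, 0.182, 0.311 and 0.167 TPM across TE_1 to TE_4. Only TE_2 and TE_4 lay below all WT embryos, and the groups overlapped. Its log2 fold change was −0.13 (SE 0.13, limma adjusted p = 0.970; two-sided exact permutation p = 0.0794). Without WT_2, the only WT embryo that overlapped the KO embryos, the groups were apart. The exact permutation test then had to give its smallest possible value (p = 0.0286), which is no further support for a difference. The difference shrank to −0.04 with quantile normalization (exact permutation test, p = 0.635). It grew to −0.43 with a pseudocount of 0.1 TPM in place of 1 (exact permutation test, p = 0.0952). FGF10, a ligand that in other organs passes from mesenchyme to epithelium, was listed at 0 in all 9 libraries.

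A further 15 secreted FGFs were looked up by symbol. Only 7 of the 15 passed the median of 0.1 TPM, and FGF3, FGF6, FGF7 and FGF17 were listed at 0 in all embryos. None of the 7 was called by limma, and 2 of the 7 had an unadjusted p under 0.05, FGF19 and FGF21, both lower in KO, against the 5.90% of all genes in either direction. FGF19, an endocrine ligand that signals through FGFR4 and KLB, measured 1.26, 1.35, 6.18, 4.98 and 2.29 TPM across WT_1 to WT_5, against 1.76, 0, 0.925 and 0.580 TPM across TE_1 to TE_4. WT_3 and WT_4 were high, 3 KO embryos lay below every WT embryo, and TE_1 lay within the WT range. Its log2 fold change was −1.14 (SE 0.42, limma adjusted p = 0.727; two-sided exact permutation p = 0.0476).

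FGF21, an endocrine ligand that needs KLB, reached 0, 1.95, 3.25, 2.38 and 0.621 TPM across WT_1 to WT_5, and 0.258, 0.239, 0 and 0 TPM across TE_1 to TE_4. All KO embryos lay below 4 of the WT embryos, while WT_1 was listed at 0 as were TE_3 and TE_4. FGF21 had a log2 fold change of −1.06 (SE 0.37, limma adjusted p = 0.708; two-sided exact permutation p = 0.0794). FGF9, a paracrine ligand, was evenly present, between 1.22 and 2.58 TPM in WT and between 0.907 and 2.76 TPM in KO. The median log2 fold change of the 7 genes was −0.0036, beside −0.05 over all genes tested. Its sign turned with median-of-ratios size factors (0.01) and quantile normalization (0.07), and when TE_1, TE_2, TE_4, WT_4 or WT_5 was left out (at most 0.07), and it fell to −0.18 without TE_3 and −0.15 with a pseudocount of 0.1 TPM.

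FGF12, FGF13 and FGF14 belong to the FGF homologous factors, which stay inside the cell and do not act through FGF receptors. FGF12 averaged 8.47 ± 5.32 TPM in WT (SD, n = 5) and 9.58 ± 6.57 TPM in KO (SD, n = 4), and FGF13 4.15 ± 1.34 and 4.66 ± 5.70 TPM. TE_3 held the highest value of all 9 embryos for both of them. The higher KO mean of FGF13 rested on TE_3 at 13.1 TPM, as TE_1, TE_2 and TE_4 were at 1.42, 3.31 and 0.861 TPM, all below the WT mean, and its log2 fold change was below 0 (−0.31, limma adjusted p = 0.982). FGF14 stayed at or below 0.746 TPM and was not tested. Neither FGF12 nor FGF13 was called by limma or had an unadjusted p under 0.05, against 5.90% of all genes at that p.

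FGFR4 and FGFR3 were the abundant receptors. FGFR4 measured 8.01, 11.9, 49.5, 24.0 and 20.4 TPM across WT_1 to WT_5, against 18.5, 21.6, 9.43 and 25.8 TPM across TE_1 to TE_4. All KO values lay inside the WT range, which WT_1 and WT_3 spanned. FGFR4 had a log2 fold change of −0.09 (SE 0.47, limma adjusted p = 0.994), and it was 0.19 without TE_3 and 0.25 without WT_3.

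FGFR3 reached 4.99, 22.1, 23.7, 9.87 and 27.3 TPM across WT_1 to WT_5, and 12.5, 14.4, 4.72 and 5.08 TPM across TE_1 to TE_4. WT_2, WT_3 and WT_5 lay above all KO embryos, while WT_1 was as low as TE_3 and TE_4. FGFR3 averaged 17.6 ± 9.63 TPM in WT (SD, n = 5) and 9.18 ± 5.01 TPM in KO (SD, n = 4), and the log2 fold change −0.80 (SE 0.51, limma adjusted p = 0.912). That difference was within the spread of the embryos (two-sided exact permutation p = 0.222).

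FGFR2, a receptor known from the trophectoderm of several mammals, was the receptor whose groups did not overlap. FGFR2 measured 1.70, 1.67, 1.83, 1.71 and 2.95 TPM across WT_1 to WT_5, against 1.63, 1.37, 1.43 and 0.786 TPM across TE_1 to TE_4. Each KO embryo lay below each WT embryo, though TE_1 and WT_2 were nearly level, WT_5 stood above the rest and TE_4 below it. FGFR2 differed by −0.37 log2 units (SE 0.24, limma adjusted p = 0.920), while the exact permutation test gave its smallest possible value (two-sided, p = 0.0159). The separation depended on the scaling: with median-of-ratios size factors 3 of 4 KO embryos lay below every WT embryo (exact permutation test, p = 0.175), as with quantile normalization (exact permutation test, p = 0.206).

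FGFR1, which on its own or with FGFR2 receives FGF4 in the mouse inner cell mass, was low in these embryos. FGFR1 reached 0.353, 0.463, 2.67, 0.637 and 0.970 TPM across WT_1 to WT_5, and 0.438, 0.262, 1.25 and 0.996 TPM across TE_1 to TE_4. WT_3 was far above the others, followed by TE_3, and the groups overlapped. FGFR1 had a log2 fold change of −0.15 (SE 0.31, limma adjusted p = 0.982) and turned to 0.088 without WT_3.

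**Figure D2:**
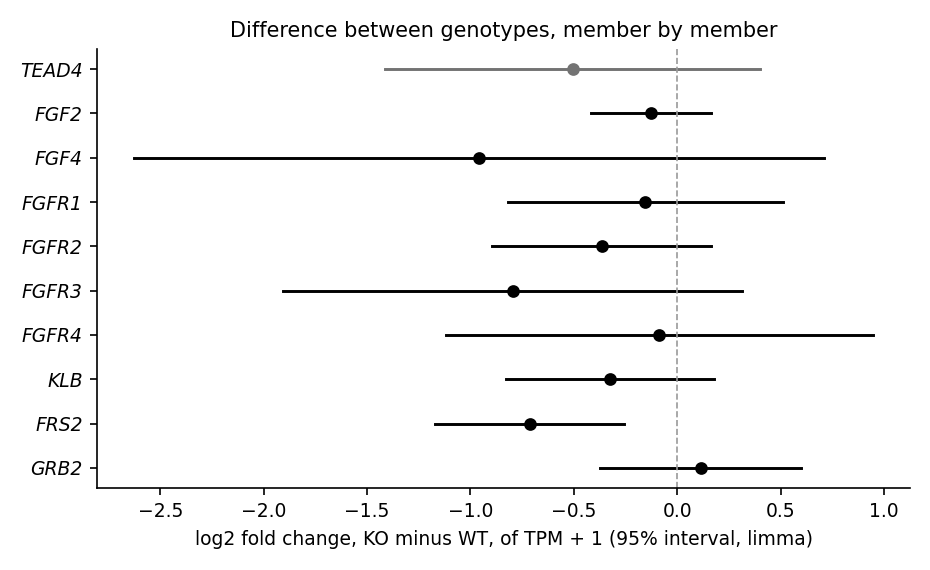
Log2 fold change, KO minus WT, of TEAD4 (grey) and of the 9 tested components (black), on the log2(TPM + 1) scale with 95% intervals from limma that are not adjusted for the number of genes. The interval of FRS2, from −1.17 to −0.26, lies below 0, and the intervals of the other 8 components include 0.

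The order of the receptors was tested within embryos, from the difference in log2(TPM + 1) between neighbours, with 3 neighbouring pairs and p-values adjusted over them. That order was itself taken from the mean levels in the same embryos, so the p-values are no independent test of it. FGFR3 exceeded FGFR2 in 9 of 9 embryos, by 2.25 ± 0.76 log2 units (SD, n = 9; exact sign-flip permutation test, two-sided, p = 0.0039, the smallest it can give, adjusted p = 0.0117). FGFR2 exceeded FGFR1 in 7 of 9 embryos, by 0.55 ± 0.54 log2 units (SD, n = 9; exact permutation test, p = 0.0273, adjusted p = 0.0410). FGFR4 exceeded FGFR3 in 7 of 9 embryos, by 0.63 ± 0.87 log2 units (SD, n = 9; exact permutation test, p = 0.0625, adjusted p = 0.0625), which did not pass the threshold.

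The FGFR4 lead was thus uneven. FGFR4 was above FGFR3 in 4 of 4 KO and 3 of 5 WT embryos, with WT_2 and WT_5 as the exceptions. The difference averaged 1.02 log2 units in KO and 0.31 in WT, and these did not differ beyond the spread between embryos (two-sided exact permutation p = 0.302). Without WT_2 the lead of FGFR4 over FGFR3 passed the threshold (0.81 log2 units, exact permutation test, adjusted p = 0.0234). That of FGFR2 over FGFR1 no longer passed when any of 6 embryos, WT_1, WT_2, WT_4, WT_5, TE_1 or TE_2, was left out, with differences between 0.49 and 0.53.

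As shares of the summed TPM of all 4 receptors, FGFR3 and FGFR4 together made up 92.1 ± 3.30% in WT (SD, n = 5) and 92.0 ± 5.33% in KO embryos (SD, n = 4). The lowest shares were those of TE_3, at 84.1%, and WT_1, at 86.3%, which also had the lowest summed receptor TPM, 16.8 and 15.0. FGFR4 alone gave 53.2, 32.8, 63.7, 66.2 and 39.5% in WT_1 to WT_5 and 55.9, 57.4, 56.1 and 79.0% in TE_1 to TE_4. FGFR4 was the larger part except in WT_2 and WT_5, where FGFR3 was, and TE_4 had the highest FGFR4 share. The summed receptor TPM was 43.3 ± 23.2 in WT (SD, n = 5) and 30.1 ± 9.11 in KO (SD, n = 4), with all KO values inside the WT range.

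**Figure D3:**
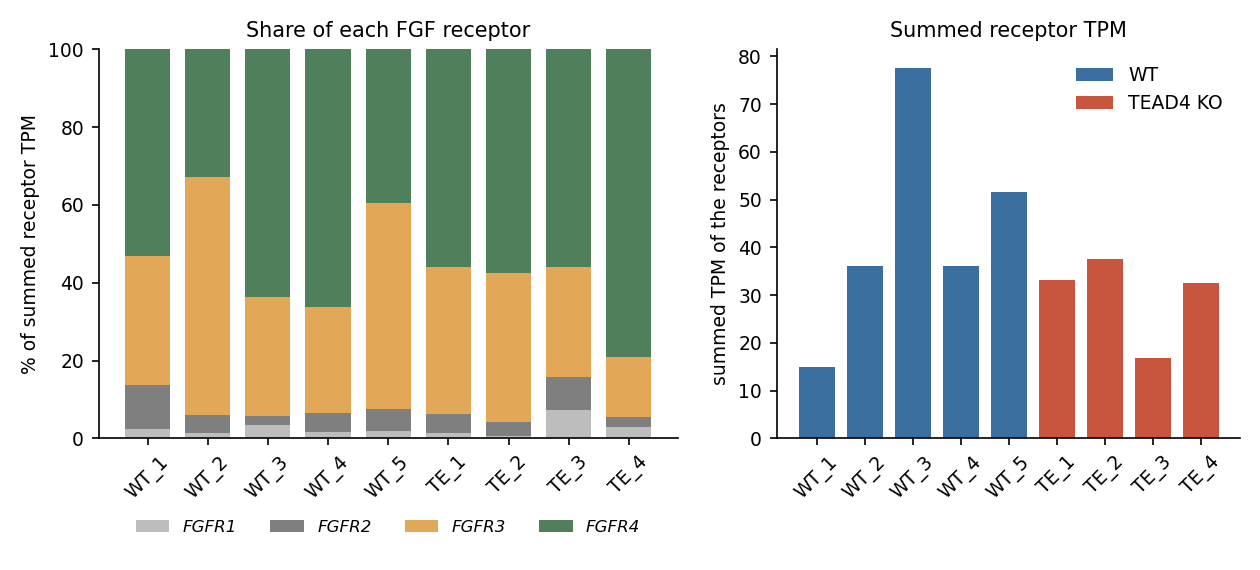
Left, the percentage of the summed receptor TPM that FGFR1, FGFR2, FGFR3 and FGFR4 gave in each embryo. Right, the summed TPM of the 4 receptors per embryo, WT in blue and KO in red; FGFR3 and FGFR4 made up at least 84.1% in every embryo, and the sum ran from 15.0 in WT_1 to 77.6 TPM in WT_3.

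Of 15 receptor tyrosine kinases of other families, the 3 most abundant were KIT, ERBB2 and MET, and the means of the 15 over the 9 embryos ran from 0.0310 to 11.2 TPM. KIT, the receptor of stem cell factor, averaged 12.5 ± 11.9 TPM in WT (SD, n = 5) and 9.52 ± 4.39 TPM in KO (SD, n = 4), ERBB2, a partner of the EGF receptor, 8.37 ± 2.50 and 12.4 ± 3.87 TPM, and MET, the receptor of hepatocyte growth factor, 6.64 ± 2.79 and 7.73 ± 5.82 TPM. Of the 15, 12 were tested and none was called by limma. At an unadjusted p under 0.05 there was 1 of 12, against the same 5.90%, KDR, higher in KO and named after its value was seen. Separate WT and KO values were found in 0 of the 12, against 1.23% of all genes lower and 0.801% higher in KO. Their median log2 fold change was −0.09, beside −0.33 for the 9 FGF components and −0.05 over all genes tested. Single embryos moved these medians, that of the components to −0.14 without WT_5, and that of the kinases to −0.24 without WT_4, −0.20 without TE_1, −0.16 without TE_2 or WT_2, −0.05 without TE_4, −0.04 without TE_3 and −0.04 without WT_3. With median-of-ratios size factors the median of the kinases was −0.05 and with quantile normalization −0.04, with 6 genes lower and 6 higher in KO under each, in place of 9 and 3.

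KLB, the co-receptor that gives FGF19 and FGF21 access to FGF receptors, measured 0.273, 0.596, 0.222, 0.276 and 1.71 TPM across WT_1 to WT_5, against 0.364, 0.200, 0.196 and 0.156 TPM across TE_1 to TE_4. WT_5 stood far above the others, 3 KO embryos lay below every WT embryo, and TE_1 lay inside the WT range. KLB differed by −0.33 log2 units (SE 0.23, limma adjusted p = 0.929; two-sided exact permutation p = 0.190). It was −0.12 without WT_5, −0.69 with array weights in limma and −0.81 with a pseudocount of 0.1 TPM. Without TE_1, the only KO embryo inside the WT range, the groups no longer overlapped. The exact permutation test then had to give its smallest possible value (p = 0.0357), which is no further support for a difference.

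Of 19 co-receptors and matrix partners besides KLB, 13 were tested and none was called by limma. KL, the co-receptor of FGF23, was listed at 0 in 7 of 9 embryos. Lower in KO at an unadjusted p under 0.05 were 2 genes, SDC1 and FLRT3, the latter named after its value was seen, and none was higher at that p, which is 2 of 13 against the 5.90% of all genes. SDC1, a heparan sulphate proteoglycan, reached 20.0, 32.0, 12.8, 5.32 and 48.9 TPM across WT_1 to WT_5, and 14.2, 8.57, 7.10 and 2.11 TPM across TE_1 to TE_4. WT_3 and WT_4 lay within the range of the KO embryos, so the groups overlapped, and the log2 fold change was −1.34 (SE 0.60, limma adjusted p = 0.836). SDC4, the most abundant of the list, averaged 96.6 ± 37.8 TPM in WT (SD, n = 5) and 93.8 ± 37.8 TPM in KO (SD, n = 4), and EXT2, an enzyme of heparan sulphate synthesis, 21.6 ± 7.11 and 21.3 ± 7.39 TPM.

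FLRT2, a membrane protein that binds FGF receptors, was listed at 0 in all 4 KO embryos and at 0.203, 0.111, 0.164, 0.0732 and 0.138 TPM in WT_1 to WT_5. The groups did not overlap, but the median was under 0.1 TPM and the gene was not among those tested with limma. The table gives no depth by which such low values could be judged. The median log2 fold change of the 13 tested genes was −0.05, as was that over all genes when rounded to 2 decimals, and its sign turned with median-of-ratios size factors (0.0046) and quantile normalization (0.01). It was −0.21 without TE_2 or WT_4, −0.16 without WT_1, −0.09 without TE_1, −0.03 without TE_4 and −0.0024 without WT_3.

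Of the 9 tested components, FRS2, the docking protein between FGF receptors and GRB2, had the smallest p. FRS2 measured 0.932, 0.856, 2.02, 0.667 and 0.972 TPM across WT_1 to WT_5, against 0.280, 0.301, 0.0171 and 0.427 TPM across TE_1 to TE_4. Each KO embryo lay below each WT embryo, with WT_3 high and TE_3 close to 0. FRS2 averaged 1.09 ± 0.535 TPM in WT (SD, n = 5) and 0.256 ± 0.172 TPM in KO (SD, n = 4), 4.25 times as high in WT. These are low values, fewer genes were above 0 on average in KO, and no depth of single libraries is given by which to judge the ratio. FRS2 differed by −0.71 log2 units (SE 0.21; two-sided exact permutation p = 0.0159, the smallest it can give). After adjustment over all genes it did not pass (limma adjusted p = 0.611, between 0.45 and 0.999 over the alternatives). With a pseudocount of 0.1 TPM in place of 1 the log2 fold change was −1.84 (limma adjusted p = 0.589), and 4 of 4 KO embryos lay below every WT embryo with each scaling tried.

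GRB2, the adaptor that brings SOS to the receptor complex, reached 121, 102, 145, 142 and 114 TPM across WT_1 to WT_5, and 117, 150.3, 103 and 177 TPM across TE_1 to TE_4. The groups overlapped from 103 to 145 TPM, and the highest values were those of TE_4 and TE_2. GRB2 varied least of the 9 tested components, by 1.74-fold between the lowest and the highest embryo. Its log2 fold change was 0.11 (SE 0.22, limma adjusted p = 0.982) and −0.020 without TE_4. It was the only tested component with a higher mean in KO: 8 of 9 had a lower mean of log2(TPM + 1), as they had with a pseudocount of 0.1 TPM, median-of-ratios size factors or quantile normalization, against 55.8% of all genes tested. The number was 6 without WT_3 and 9 without TE_4.

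Below the receptor complex, the 21 other adaptors and members of the Ras-ERK cascade were all tested. None was called by limma, against 0.0205% of all genes, and none had an unadjusted p under 0.05 in either direction, against 5.90%. None had separate groups, against 1.23% of all genes with every KO embryo lower and 0.801% with every KO embryo higher. ARAF, a RAF kinase, averaged 167 ± 40.1 TPM in WT (SD, n = 5) and 172 ± 48.0 TPM in KO (SD, n = 4), AKT1, a kinase of the PI3K branch, 99.6 ± 18.6 and 84.9 ± 27.3 TPM, and the GTPase HRAS 78.2 ± 16.7 and 85.9 ± 20.4 TPM. The mean of log2(TPM + 1) was lower in KO for 17 of 21, against 55.8% of all genes, and for 16 with median-of-ratios size factors. Their median was −0.29, beside −0.05 over all genes. Without TE_1 it was −0.11, beside 0.04 over all genes, and without TE_2 −0.41, beside −0.12 over all genes.

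Among the feedback and target genes, DUSP6 had the smallest p. DUSP6, a phosphatase that inactivates ERK and is itself induced by ERK activity, measured 24.8, 24.7, 20.4, 10.3 and 18.9 TPM across WT_1 to WT_5, against 4.54, 4.16, 3.91 and 3.89 TPM across TE_1 to TE_4. The KO embryos lay close together and all below WT_4, the lowest WT embryo. DUSP6 averaged 19.8 ± 5.92 TPM in WT (SD, n = 5) and 4.12 ± 0.302 TPM in KO (SD, n = 4), 4.81 times as high in WT. DUSP6 differed by −1.97 log2 units (SE 0.31). Since DUSP6 was named for groups that did not overlap, a permutation test would repeat that choice and is not given.

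Once adjusted over all genes, DUSP6 missed the threshold (limma adjusted p = 0.0702). Over the 17 alternatives the adjusted p lay between 0.0436 and 0.256, and it was under 0.05 in 3 of them, limma without trend (0.0436), a median above 1 TPM (0.0445) and a pseudocount of 0.1 TPM (0.0492). Its log2 fold change lay between −2.18 and −1.85, and 4 of 4 KO embryos lay below every WT embryo with each scaling tried.

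PHLDA1, another ERK-responsive gene, reached 2.16, 1.53, 2.02, 5.62 and 7.10 TPM across WT_1 to WT_5, and 1.07, 0.243, 0.322 and 0.341 TPM across TE_1 to TE_4. WT_4 and WT_5 were high, and TE_1 was the KO embryo nearest to the WT range, without reaching it. PHLDA1 differed by −1.52 log2 units (SE 0.38, limma adjusted p = 0.415). PHLDA1 was named because its groups did not overlap, so no permutation p is given for it.

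Of 20 feedback and target genes, 19 were tested and 0 were called by limma. Lower in KO at an unadjusted p under 0.05 were 3 genes, DUSP6, PHLDA1 and MYC, the last named after its value was seen, and none was higher at that p, against the 5.90% of all genes in either direction. In 2 of 19 every KO embryo lay below every WT embryo, against the 1.23% of all genes given above. The list was written with earlier results of these data known, so these shares are no independent support for a difference. The mean of log2(TPM + 1) was lower in KO for 12 of the 19 and higher for 7, against 55.8% lower over all genes, with a median of −0.29, beside −0.05 over all genes. Both depended on single embryos: without TE_3 16 were lower and 3 higher, and the median was −0.14 without WT_4 and −0.18 without TE_1 or WT_3.

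SPRY2, a feedback inhibitor of receptor tyrosine kinases, measured 5.02, 15.2, 15.4, 54.3 and 25.2 TPM across WT_1 to WT_5, against 11.8, 7.20, 2.70 and 13.0 TPM across TE_1 to TE_4. The highest value was that of WT_4, which was also highest in FGF4, and the groups overlapped. IER3, the most abundant gene of the list, averaged 164 ± 63.9 TPM in WT (SD, n = 5) and 226 ± 160.4 TPM in KO (SD, n = 4), with TE_3 far above the others at 466.8 TPM. The immediate-early gene FOS averaged 23.4 ± 13.0 and 16.2 ± 5.62 TPM.

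**Figure D4:**
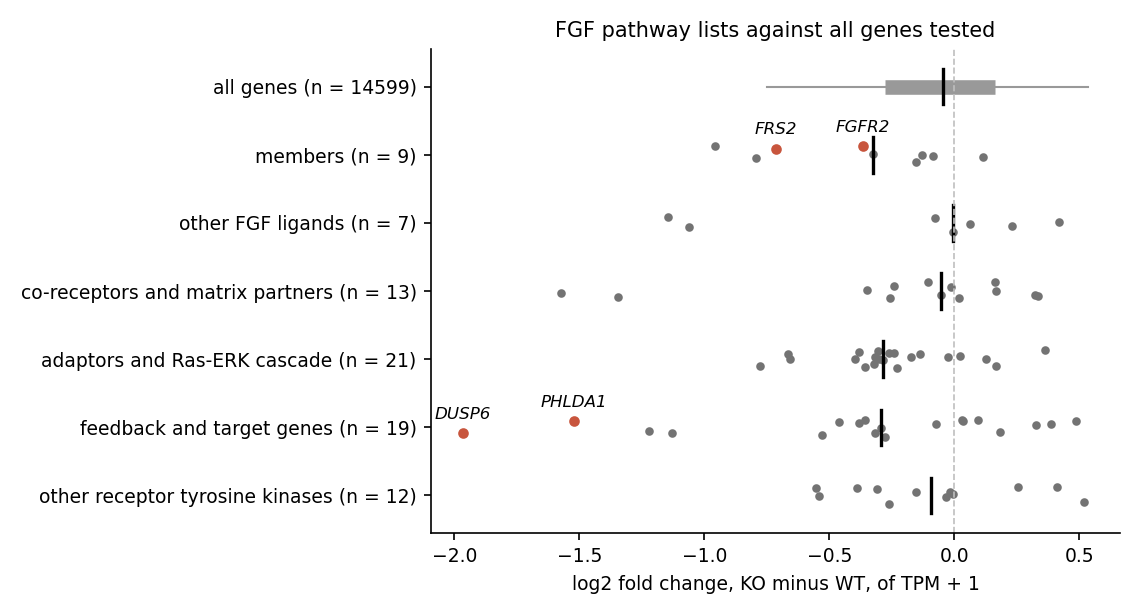
Log2 fold change, KO minus WT, of each tested gene in the FGF pathway lists (points, with the list's median as a black line), below the same quantity over all genes tested, drawn as its median, its middle 50% (thick bar) and its middle 90% (thin line). Red points are genes in which every KO embryo lay below every WT embryo, FRS2 and FGFR2 among the components and DUSP6 and PHLDA1 among the feedback and target genes.

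Relations of FGF4, FGFR1 and FGFR2 with genes of the lineages were computed over the 9 embryos, 6 in all, with p-values adjusted over the 6. FGF4 followed NANOG, with Pearson's r of 0.921 (exact permutation test, p = 0.00028, adjusted p = 0.0017) and Spearman's rho of 0.887 (exact permutation test, p = 0.0025, adjusted p = 0.0152). NANOG reached 0.127, 29.3, 53.4, 262 and 90.2 TPM across WT_1 to WT_5, and 53.3, 2.70, 3.55 and 26.3 TPM across TE_1 to TE_4. WT_1, TE_2 and TE_3 were low in both genes, and WT_4 and WT_5 were high in both. Without WT_4 and WT_5, the embryos farthest from the median of FGF4, r was 0.913 (exact permutation test, p = 0.0111, adjusted p = 0.0667). With the mean of each genotype removed r was 0.914 (exact permutation test within genotypes, p = 0.00069, adjusted p = 0.0042).

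FGF4 and SOX2, also an epiblast factor, had r of 0.753 (exact permutation test, p = 0.0199, adjusted p = 0.0596) and rho of 0.812 (exact permutation test, p = 0.0113, adjusted p = 0.0340). Thus rho passed the threshold and r did not. Single embryos changed this call, since r was 0.83 without WT_3 (exact permutation test, adjusted p = 0.0376) and 0.820 without WT_5 (exact permutation test, adjusted p = 0.0269). Without any other embryo r did not pass, and it was lowest without WT_4, at 0.668. Without WT_4 and WT_5 r was 0.811 (exact permutation test, p = 0.0258, adjusted p = 0.0774). With a pseudocount of 0.1 TPM r was 0.857 (exact permutation test, adjusted p = 0.0104), and with median-of-ratios size factors 0.776 (exact permutation test, adjusted p = 0.0440). It did not pass with the mean of each genotype removed, where r was 0.739 (exact permutation test within genotypes, p = 0.031, adjusted p = 0.094).

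**Figure D5:**
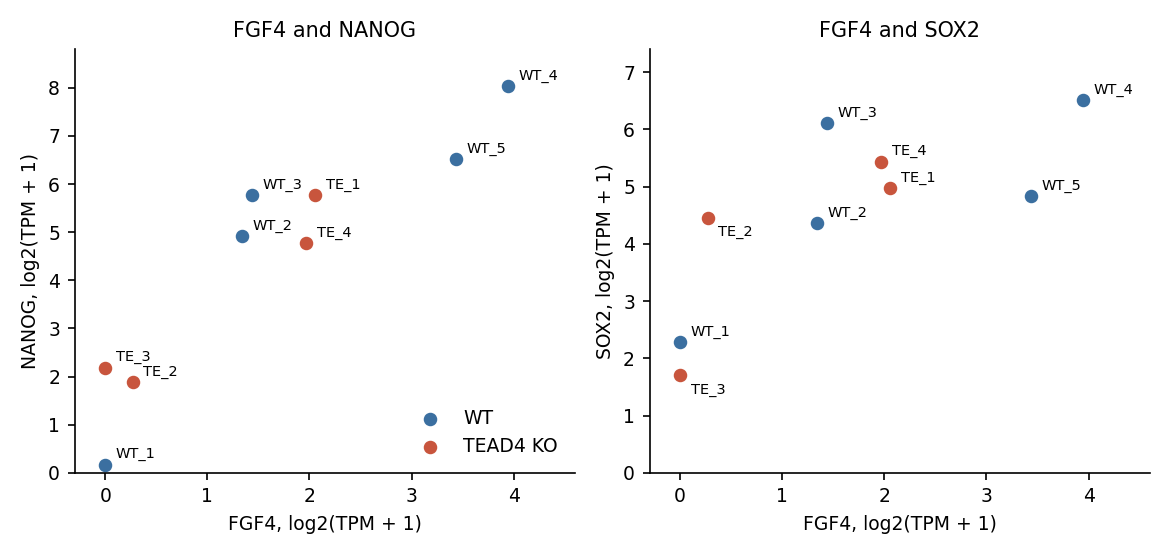
FGF4 (horizontal axis) against NANOG and SOX2 (vertical axes), all as log2(TPM + 1), 1 point per embryo with its library name, WT in blue and KO in red. Embryos of both genotypes lie along the lower part of the FGF4 range, whose upper end is formed by WT_4 and WT_5. Both are also highest in NANOG, whereas in SOX2 WT_5 lies below WT_3, WT_4, TE_1 and TE_4.

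In the 4 relations with SOX17, DUSP6 and CDX2, neither r nor rho passed the threshold. FGF4 had r of 0.565 with SOX17, a hypoblast factor (exact permutation test, p = 0.113, adjusted p = 0.226; rho 0.318, exact permutation p = 0.400, adjusted p = 0.600), and r was 0.145 without WT_4 and WT_5. FGF4 had r of 0.133 with DUSP6 (exact permutation test, p = 0.71, adjusted p = 0.71; rho −0.092, exact permutation p = 0.817, adjusted p = 0.880), and r was −0.092 without WT_4 and WT_5 and −0.681 with the mean of each genotype removed. WT_1 had the highest DUSP6 of all embryos while FGF4 was listed at 0 there.

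FGFR1 had r of 0.488 with SOX17 (exact permutation test, p = 0.186, adjusted p = 0.279; rho 0.667, exact permutation p = 0.0589, adjusted p = 0.118), and r was 0.522 without WT_3 and TE_3. FGFR2 had r of 0.326 with the trophectoderm factor CDX2 (exact permutation test, p = 0.426, adjusted p = 0.511; rho −0.067, exact permutation p = 0.880, adjusted p = 0.880). That relation rested on WT_5 and TE_4, without which r was −0.706 (exact permutation test, p = 0.0738, adjusted p = 0.148). With the mean of each genotype removed r was 0.548 (exact permutation test within genotypes, p = 0.197, adjusted p = 0.264).

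For each tested component, the gene most like it across the 9 embryos was taken by Pearson's r of log2(TPM + 1) among genes with a symbol and a median above 1 TPM, a search over at least 10431 genes for which no test is given. FGFR3 was most like IL17RA (r = 0.985), GRB2 like DDX19B (r = 0.975), FRS2 like HOXC10 (r = 0.950), FGF4 like CAV1 (r = 0.950) and FGF2 like ORAI1 (r = 0.948). FGFR4 was most like KIF13A (r = 0.937), FGFR1 like NFKBIB (r = 0.930), and FGFR2 and KLB were both most like SLC27A3 (r = 0.909 and 0.904). Each r is the highest of a long search and is given as a description of 9 embryos.

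Lineage markers are given beside these values. The 7 trophectoderm markers summed to 11514 ± 5609 TPM in WT (SD, n = 5) and 8768 ± 2706 TPM in KO (SD, n = 4), the 3 epiblast markers to 1305 ± 499 and 1754 ± 377 TPM and the 3 hypoblast markers to 100.02 ± 19.9 and 78.7 ± 49.4 TPM. The trophectoderm sum was mostly KRT8 and KRT18. The hypoblast sum was mostly GATA6, with means of 83.8 TPM in WT and 72.6 TPM in KO, while SOX17 averaged 14.8 and 5.51 TPM and GATA4 1.46 and 0.640 TPM. The epiblast sum was mostly POU5F1, higher in KO by 0.57 log2 units (limma adjusted p = 0.836), whereas NANOG and SOX2 had log2 fold changes of −1.43 (limma adjusted p = 0.962) and −0.68 (limma adjusted p = 0.982), so that this sum does not stand for all 3. As POU5F1 is not specific to epiblast in bovine blastocysts, the sum is no measure of epiblast content either. The direction of SOX2 depended on TE_3, without which 1 epiblast marker was lower and 2 were higher in KO, with a median of 0.14. No lineage marker was called by limma. Lower in KO at an unadjusted p under 0.05 were 1 of the 7 trophectoderm markers, TFAP2A, and 1 of the 3 hypoblast markers, GATA4. No epiblast marker passed and none was higher at that p, against 5.90% of all genes in either direction. GATA4 measured 1.43, 1.75, 1.09, 1.31 and 1.74 TPM across WT_1 to WT_5, against 0.367, 0.600, 0.957 and 0.638 TPM across TE_1 to TE_4. All KO embryos lay below all WT embryos, as in 1.23% of all genes, although 3 of 4 did with median-of-ratios size factors and also with quantile normalization. GATA2, GATA3, TFAP2C, KRT18 and KRT8 overlapped between genotypes, as did CDX2, SOX2, NANOG, POU5F1, SOX17 and GATA6.

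Cumulus cells surround the oocyte. They were removed with hyaluronidase and vortexing before injection, and 8 of their markers were looked at. These markers summed to 266, 128, 77.1, 139 and 173 TPM in WT_1 to WT_5 and to 57.6, 35.6, 127 and 8.76 TPM in TE_1 to TE_4. The most abundant on average was CYP11A1, a steroidogenic enzyme that trophoblast also makes, at 129 ± 73.2 TPM in WT (SD, n = 5) and 33.8 ± 43.1 TPM in KO (SD, n = 4), with TE_3 inside the WT range (limma adjusted p = 0.566). FSHR averaged 17.5 ± 5.65 TPM in WT (SD, n = 5) and 17.1 ± 10.5 TPM in KO (SD, n = 4). The mean of STAR was lower in KO, at 7.74 ± 2.87 and 4.52 ± 2.23 TPM (limma adjusted p = 0.891). That of CYP19A1 was higher in KO, at 1.05 ± 0.525 and 1.72 ± 1.26 TPM (limma adjusted p = 0.970), and the groups overlapped for both genes. Of the matrix genes that define expanded cumulus, HAS2 was at most 0.520 TPM, TNFAIP6 at most 2.08 TPM and PTX3 at most 0.370 TPM, and INHBA was at most 0.386 TPM. HAS2, TNFAIP6 and INHBA had a lower mean TPM in KO, with their highest values in WT_4 and WT_5, and PTX3 a higher one, with its highest values in TE_1 and TE_4. Of the 5 cumulus markers tested, 4 had a lower mean of log2(TPM + 1) in KO, against 55.8% of all genes, and none was called by limma. Of these 4, 1 had an unadjusted p under 0.05, against 5.90% of all genes in either direction. The median log2 fold change of the 5 was −0.70. Without TE_4, 4 markers were tested, 2 lower and 2 higher in KO, with a median of −0.0032. The mean sum was lower in KO, as were FRS2 and DUSP6, with CYP11A1 as most of the difference, and its part in those differences was not tested.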

How the data were processed

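The authors sequenced 5 WT and 4 TEAD4 KO bovine blastocysts at D8, 1 library for each. The authors' deposited values are TPM; FastQC, fastp and kallisto are named in the submitters' processing notes, and versions, annotation and genome build are not given in the sources used here. The study's methods describe a SMART-Seq kit, while the sample labels describe a stranded mRNA kit, and which was used is not known. Of the gene names, 17805 are symbols in the RefSeq annotation of ARS-UCD2.0, all 10 components among them. Columns were assigned to a genotype by their headings. The columns were not paired. Pearson's r across genes was between 0.913 and 0.984 for pairs of libraries, and no library was a copy of another. The authors used DESeq2 on counts, which was not run here because TPM are not counts.

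Genes with a median above 0.1 TPM entered a linear model (limma 3.58.1, R 4.3.3, eBayes with trend) on log2(TPM + 1) and Benjamini-Hochberg adjustment, after the calculation had been tested on simulated data. For single genes, every division of the 9 embryos into 5 and 4 was enumerated in an exact permutation test, for which the smallest two-sided p is 0.0159, without adjustment. Neighbouring receptors were compared by exact sign-flip permutation, and relations by exact permutation of pairings. The other steps ran in Python 3.11.15 with scipy 1.17.1, pandas 2.3.3 and numpy 2.4.6.

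Named genes were TEAD4, the components, and in each pathway list (other FGF ligands, FGF homologous factors, co-receptors and matrix partners, adaptors and Ras-ERK cascade, feedback and target genes, other receptor tyrosine kinases) the genes called, those whose groups did not overlap and the 3 most abundant, with all lineage and cumulus markers and the gene most like each component. The components and lists were chosen with earlier results of these data known. FGF11 is not analysed here. The alternatives tried were quantile normalization or median-of-ratios size factors, array weights, robust eBayes or no trend in limma, a pseudocount of 0.1 TPM, a median above 1 TPM or no filter, other sets of embryos for orders and relations, and leaving out each embryo in turn.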

Additional observations from a re-analysis of the deposited data

Results flagged for a closer look

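Among 20 sets of values, those of TEAD4 and the 9 tested components within each genotype, 4 held an embryo whose gap to its nearest neighbour was large beside the whole range of the group. For normally distributed values chance alone does so in about 1 of 20 groups. TPM need not be distributed so, and the rate for such values was not tested. All 4 were high values in WT embryos. FGFR1 was at 2.67 TPM in WT_3, against 0.353 to 0.970 TPM in the other 4 WT embryos, and FRS2 was at 2.02 TPM in WT_3, against 0.667 to 0.972 TPM. FGFR2 was at 2.95 TPM in WT_5, against 1.67 to 1.83 TPM, and KLB was at 1.71 TPM in WT_5, against 0.222 to 0.596 TPM. Without WT_3 the log2 fold change of FRS2 was −0.57 and that of FGFR1 0.088, and without WT_5 those of FGFR2 and KLB were −0.26 and −0.12.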

How the results depend on the processing

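No component tested was called by limma under any of the 17 alternatives, and at most 2 components had an unadjusted p under 0.05. With a median above 1 TPM only 5 components were tested, so FGF2, FGFR1, FRS2 and KLB had 16 alternatives. The number of genes called among all tested was 8 with a median above 1 TPM, 8 with a pseudocount of 0.1 TPM, 6 with quantile normalization, 6 with robust eBayes, 5 with size factors and 5 without trend, and it ran from 0 (without WT_3, WT_4, TE_1, TE_2 or TE_4) to 10 (without TE_3) when embryos were left out; it was 1 without WT_5. The cause was not tested.

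In the exact permutation tests, FGFR2 differed by −0.32 with size factors (p = 0.175) and −0.27 with quantile normalization (p = 0.206). Leaving out embryos gave −0.17 to −0.087 for FGF2 and −0.41 to −0.12 for KLB. Directions turned for FGFR1 (−0.29 to 0.088 without WT_3), FGFR4 (−0.37 to 0.25; 0.19 without TE_3) and GRB2 (−0.020 to 0.24). FGF4, FGFR3 and FRS2 kept direction and side of the threshold in all 12 alternatives. As the FRS2 groups did not overlap, leaving out an embryo or changing the pseudocount had to give the smallest possible p. Only size factors and quantile normalization could have moved FRS2 across the threshold.

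FGFR3 over FGFR2 was 2.45 in WT alone and 2.02 in KO alone (exact permutation test, adjusted p = 0.188 for each), and FGFR2 over FGFR1 was 0.65 in WT alone (adjusted p = 0.188) and 0.43 in KO alone (adjusted p = 0.375); groups of 5 or 4 embryos cannot pass. Leaving out embryos gave 0.49 to 0.67 for FGFR2 over FGFR1 and 0.44 to 0.81 for FGFR4 over FGFR3. The share of FGFR3 and FGFR4 moved by less than its SD.

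FGF4 with NANOG had r of 0.913 without WT_4 and WT_5 (exact permutation test, adjusted p = 0.0667), where 7 embryos remain. FGF4 with SOX2 had r of 0.857 with a pseudocount of 0.1 TPM and 0.776 with size factors, and 0.668 to 0.83 with embryos left out. FGF4 with DUSP6 had r of −0.681 with genotype means removed, −0.092 without WT_4 and WT_5, and −0.041 to 0.382 with embryos left out (−0.012 without WT_5). FGFR2 with CDX2 had r of −0.706 without WT_5 and TE_4, and −0.024 to 0.490 with embryos left out. No paired analysis was made because the embryos of the genotypes share no replicate numbers in the sample labels. The column headings do repeat numbers between genotypes, but the sources used here tie those numbers to no batch or day. The depth of single libraries is not in the deposited table, which limits all values near 0.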
